A study of Arvicanthis niloticus with 59 samples.

Results

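The urinary bladder and the uterus of Arvicanthis niloticus, the Nile grass rat, were compared as 2 hollow pelvic organs whose walls are built of smooth muscle. The 2 libraries were chosen by the site in their titles, from 59 libraries in all. The bladder came from animal T173F and the uterus from animal T3F. Both were biopsies of untreated, healthy tissue, and polyadenylated RNA was sequenced in paired ends. The labels state neither age, day of collection nor stage of the reproductive cycle. With 1 library a side, each difference below has no replicate check, no p-value is given, and organ and animal cannot be told apart.

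As background, the bladder is lined by urothelium, a stratified epithelium whose surface cells are covered by plaques of uroplakins, and its wall is the detrusor muscle, which parasympathetic nerves drive through acetylcholine and ATP. The uterus forms from the Müllerian duct; its glandular and luminal epithelium, its stroma and its muscle respond to oestrogen and progesterone. Along the trunk, Hox genes mark position, and the genes with the highest numbers mark the tail end, which includes the cloaca from which the bladder arises.

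Levels are given as TPM, a transcript abundance scaled by transcript length and library size, and differences as log2(TPM + 1) in bladder minus uterus, a scale on which the pseudocount of 1 TPM understates the difference of low genes. A gene was counted as differing where it was at least 4 times higher on this scale, a difference of 2 or more, among the 15397 genes that reached 1 TPM in either library. Of these, 760 (4.94%) were at least 4 times higher in bladder and 1160 (7.53%) in uterus, 12.5% in either direction. The median difference was −0.29, the median absolute difference 0.68, and 10052 genes (65.3%) lay within 2 times. The shares of 4.94% and 7.53% and the median of −0.29 are the background for every list count below. A count near them says little about its list. At the threshold, Fam167a at 17.6 against 3.64 TPM was just counted for bladder and Dnajb8 at 3.77 against 0.195 TPM was not. On the uterus side, Rasa2 at 2.96 against 14.8 TPM was counted and Efna4 at 8.56 against 37.2 TPM was not. Paired values joined by "and" give bladder first, and those joined by "against" give the higher organ first, unless the organ is named. For some genes, a ratio of CPM, counts scaled to the library total, is given with its exact 95% interval, which covers counting error only. Pairs printed without an interval can also rest on few counts in the lower organ. Examples are Grhl3 and Foxa1, each on 1 uterus count, and Osr2, on 1 bladder count. As a setting beside the main one, the difference between the ovary libraries of the same 2 animals, T173F minus T3F, was subtracted. Where that brought a counted gene inside 4 times or turned its direction, the value left is given as ovary-adjusted, on the log2 scale. The ovary libraries may not hold the same tissue, since oviduct genes were present in that of T173F and at or near 0 in that of T3F, so the adjusted values mix tissue and animal. Ovary-adjusted, the threshold genes Fam167a and Rasa2 were at −3.48 and −1.59.

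The bladder library held 6334162 expected counts and the uterus library 20136916, which is 3.18 times as many. A level of 3 counts, taken as the floor of each library, was 0.474 CPM in bladder and 0.149 CPM in uterus. Of the genes counted as higher, 145 had 0 counts in uterus and 500 had 0 counts in bladder, where the shallower depth makes a count of 0 more likely. A further measure that differed was the share of TPM in mitochondrial genes, those named mt-, at 0.607% in bladder and 3.90% in uterus. Most of it came from 2 genes, mt-Nd1 (4634 and 21567 TPM) and mt-Nd5 (1134 and 16075 TPM), so it is no measure of all mitochondrial RNA. The part of this share in the differences below was not tested. Among the other libraries, the gene levels of the bladder were nearest to rectum of T173F (Spearman rho across genes 0.867), then uterus (0.859), and those of the uterus to ovary of T173F (0.875), then bladder (0.859). Genes are not independent replicates, so these values only rank the libraries.

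**Figure D1:**
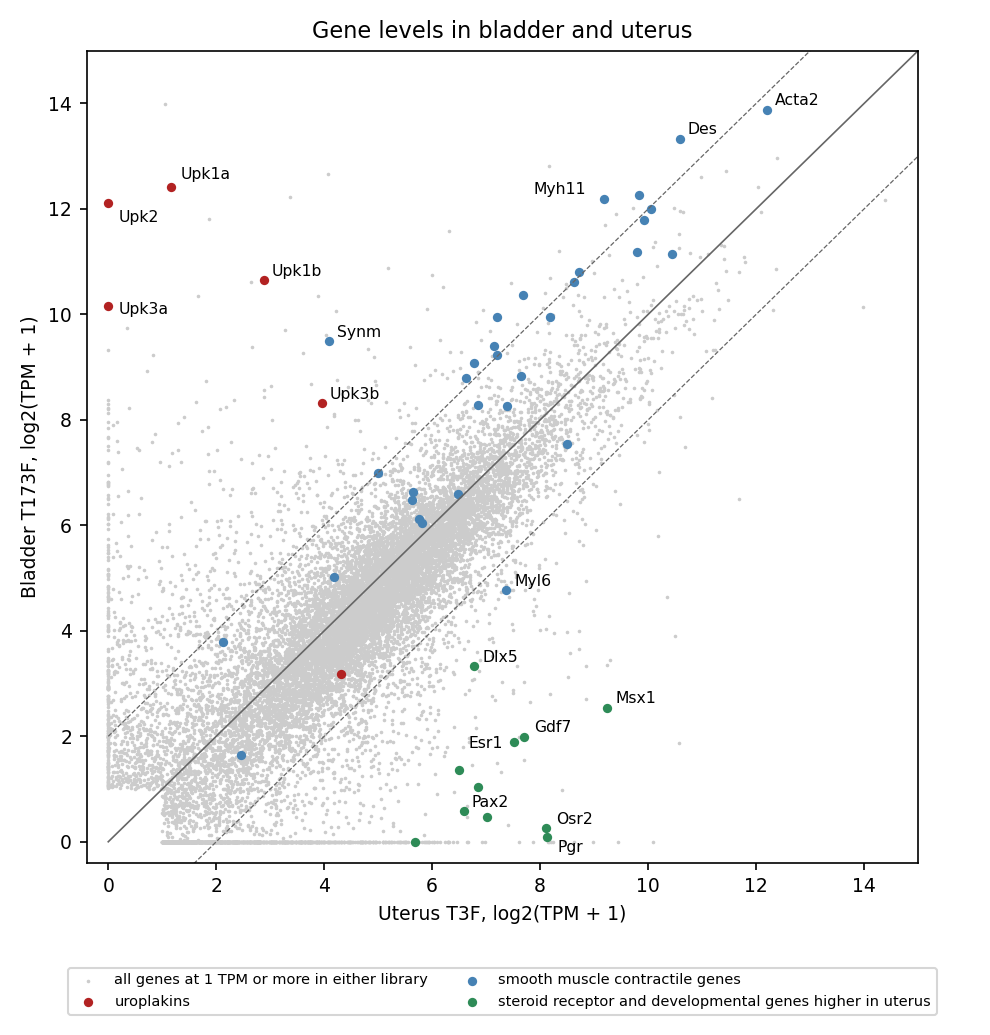
Each point is a gene that reached 1 TPM in the bladder or the uterus library, with log2(TPM + 1) in uterus on the horizontal axis and in bladder on the vertical axis; the solid line marks equal levels and the dashed lines 4 times higher on either side. Of the uroplakins 5 of 6 lie far to the upper left, smooth muscle genes lie mostly above the line at high levels in both organs, and steroid receptor and developmental genes such as Pgr and Msx1 lie to the lower right.

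Uroplakins set the organs furthest apart. The marker of the bladder label, Upk1a, a tetraspanin of the urothelial plaque, was at 5448 TPM in bladder and 1.22 TPM in uterus, a CPM ratio of 4416 (interval 2142 to 10986). Its plaque partner Upk2 was at 4420 TPM against 0 counts in uterus, at least 9187-fold higher in CPM against the floor. Upk3a, which pairs with Upk1b, was at 1150 TPM against 0 counts, at least 9141-fold higher. These 3 genes were thus at or near 0 in uterus. Upk1b was at 1602 and 6.34 TPM, and Upk3b, which mesothelium also makes, at 319.5 and 14.5 TPM. The related gene Upk3bl went the other way without passing the threshold, at 8.11 and 18.9 TPM. In all, 5 of 6 uroplakins were at least 4 times higher in bladder, with a median difference of 8.97 against −0.29 over all genes. In bulk tissue, fewer cells of a type and less RNA per cell cannot be told apart, here and for every group below.

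Bladder held the highest level of all 59 libraries for those 5 uroplakins. Renal pelvis, the other site lined by urothelium, was far lower: Upk1a was at 12.9 TPM in the renal pelvis of T173F and 3.5 TPM in that of T426. Upk2 was at 13.7 and 7.16 TPM in these libraries. Psca, a surface antigen of urothelium and stomach, did not share this pattern, at 3583 TPM in bladder, 1801 and 1254 TPM in the renal pelvis libraries, and 2.64 TPM in uterus. The summed uroplakin level was 12946 TPM in bladder, 41.0 TPM in uterus, and at most 1272 TPM, in cornea, elsewhere. Upk3a was the gene whose level followed Upk1a most closely across the 59 libraries (Pearson r 0.81 of log2(TPM + 1)). That r was 0.50 without bladder and uterus, so it leaned on the bladder, and the libraries share 4 animals. The next genes by this measure, Gm20683, Gm20604, Mrps34 and Npy6r, rested on 16, 2, 11 and 32 bladder counts and say little.

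Other urothelial genes sorted the same way. Of 15 urothelium markers in the tables, 14 were at least 4 times higher in bladder, with a median difference of 7.77. That list also holds Upk1a, Upk1b, Upk2 and Upk3a, so its count and median are not separate from those of the uroplakins. It further shares Gata3, Grhl3 and Trp63 with the differentiation factors below. Krt20, a keratin of surface umbrella cells, was at 856 TPM against 0.272 TPM, and Snx31, a sorting nexin known to bind uroplakin vesicles, at 425 against 2.51 TPM. Of the basal cell genes, Krt5 was at 54.5 and 0.289 TPM (ovary-adjusted 1.48) and the p53 relative Trp63 at 52.0 and 0.758 TPM. Genes of both the surface and the basal layer were therefore present. Krt13, a keratin of intermediate cells, was the exception, at 8.13 TPM in bladder and 8.27 TPM in uterus. The simple epithelial keratins differed less: Krt8 was at 1020 and 302 TPM and Krt19 at 887 and 466 TPM.

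Of 17 urothelial differentiation factors that passed the filter, 6 were at least 4 times higher in bladder and 1 in uterus. Grhl3, a transcription factor of barrier epithelia, was at 238 and 0.0575 TPM. Gata3 was at 265 and 1.66 TPM, the pioneer factor Foxa1 at 73.7 and 0.0604 TPM, and the nuclear receptor Pparg at 381 and 6.36 TPM. Those 4 are known regulators of urothelial genes. Shh, the ligand by which basal urothelium signals to the wall beneath, was at 181 TPM against 0 counts, at least 565-fold higher in CPM. Foxa2 was the member on the other side, at 2.17 TPM in bladder and 18.1 TPM in uterus, where it is known as a factor of the glands. Other members stayed inside 4 times, among them Klf5 at 418 and 225 TPM and Rarg at 70.1 and 70.7 TPM.

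The most abundant gene of the bladder was Sprr1a, which encodes a cornified envelope protein of stratified epithelia, at 16249 TPM against 1.08 TPM and 2 counts in uterus. Its CPM ratio was 14718, with an interval of 4073 to 121546. Further genes of stratified epithelia were among the largest differences. Calml3, a calmodulin-like epithelial protein, was at 6518 and 15.8 TPM, the cystatin Cst6 at 4770 and 9.29 TPM, and Ly6d at 1130 TPM against 0 counts (at least 466-fold). Ivl, a precursor of the cornified envelope, was at 293 TPM against 0 counts, at least 330-fold higher. These genes are not particular to bladder: non-glandular stomach held more Cst6 (9153 TPM), Ly6d (1777 TPM) and Ivl (746 TPM), and cornea more Calml3 (31833 TPM). The remaining largest differences by the same rule were in Psapl1 (1296 and 2.15 TPM), the protease Ctse (597 and 0.782 TPM), Fam25c (639 TPM and 0 counts) and Lypd8 (298 TPM and 0 counts). Gm20708 and Gm20683 also ranked there, but on 30.7 and 16 bladder counts.

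Epithelial junction genes as a whole did not separate the organs: of 25 members, 1 was at least 4 times higher in bladder and 2 in uterus, and the median difference was 0.06. Cdh1, which encodes E-cadherin, was at 198 and 112 TPM and Epcam at 292 and 670 TPM. The claudins, which set how tight a junction is, held the exceptions. Cldn3 was at 13.9 TPM in bladder and 1449 TPM in uterus, Cldn10 at 1.81 and 36.7 TPM, and Cldn23 at 403 and 30.2 TPM (ovary-adjusted −2.59).

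Transport genes differed by family member. The epithelial sodium channel subunit Scnn1g was at 193 and 0.116 TPM and its subunit Scnn1b, the neighbouring gene in the RefSeq gene order, at 73.1 and 0.493 TPM. Scnn1a, which completes the channel, was at 1.02 TPM in bladder and 13.2 TPM in uterus. Among water channels, Aqp3 was at 99.0 and 0.294 TPM, whereas Aqp5 had 0 counts in bladder and 695 TPM in uterus, at least 493-fold higher. The urea transporter Slc14a1 was at 255 and 7.22 TPM (ovary-adjusted −0.023). Of 23 members that passed the filter, 4 were counted for each organ, with a median of 0.03.

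**Figure D2:**
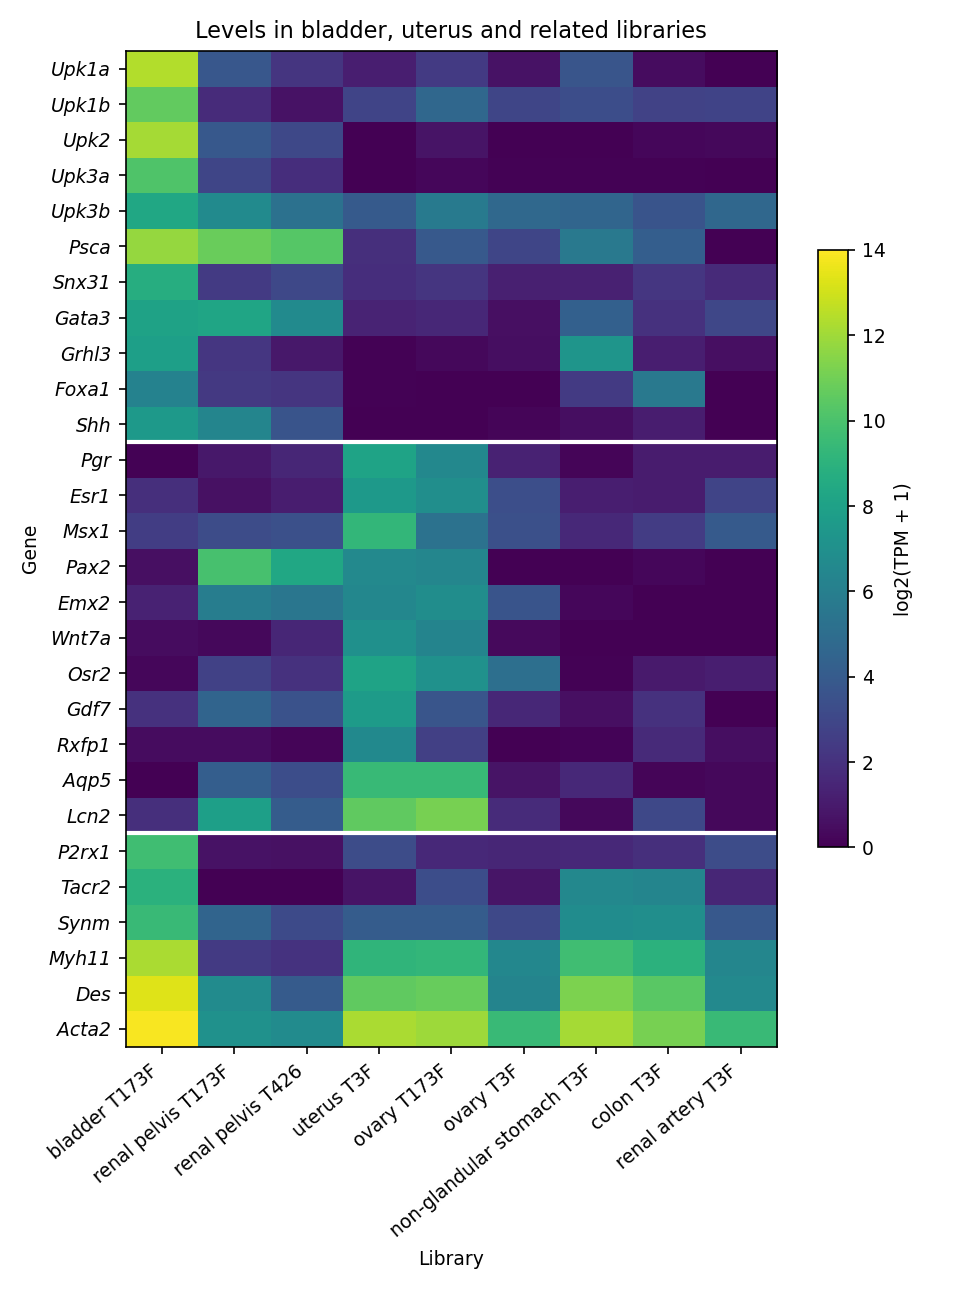
Rows are genes and columns libraries; colour gives log2(TPM + 1) from 0 to 14. White lines separate urothelial genes (top), genes higher in uterus (middle) and smooth muscle genes (bottom). Uroplakins are bright in bladder, from 319.5 TPM for Upk3b upwards, and dim in most other libraries, the middle group is bright in uterus and mostly also in ovary T173F, and Acta2 and Des are brightest in bladder but high in uterus and gut too.

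The receptors for oestrogen and progesterone were higher in uterus. Pgr, the progesterone receptor, was at 277.5 TPM in uterus and 0.0611 TPM in bladder, from 14427 counts against 1, a CPM ratio of 4538 (interval 814 to 179257). Esr1, the oestrogen receptor alpha, was at 182 against 2.71 TPM. Uterus held the highest level of all 59 libraries for both receptors. Esr2, the beta receptor, was at 0.0376 TPM in uterus with 0 counts in bladder. The oestrogen-responsive gene Greb1 was at 16.9 TPM in uterus and 0.105 TPM in bladder, and Hsd11b2, which inactivates glucocorticoid, at 102 against 2.89 TPM. The glucocorticoid receptor Nr3c1 and the mineralocorticoid receptor Nr3c2 were close, at 17.0 and 12.3 TPM and at 19.9 TPM in both. Of 22 members of this list that passed, 5 were counted for uterus and 4 for bladder, the latter all steroid-converting enzymes. These enzymes were Hsd17b2 (32.5 TPM and 0 counts in uterus), Srd5a1 (135 and 14 TPM), Hsd11b1 (39.1 and 6.52 TPM) and Hsd17b1 (107 and 21.3 TPM). Hsd17b1 rested on only 13.55 bladder and 9.15 uterus counts.

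The marker of the uterus label, Gdf7, a BMP family ligand, was at 206 TPM in uterus and 2.98 TPM in bladder, a CPM ratio of 69.6 (interval 27.1 to 256). The next library, renal pelvis of T173F, held 21.5 TPM. Genes whose level followed Gdf7 across the 59 libraries were Defb23 (r 0.79), Chrdl2 (0.73), Csf3 (0.73), Htr2b (0.70) and Hoxa11 (0.70). Without bladder and uterus r was 0.73, 0.47, 0.69, 0.69 and 0.57. Of these, Defb23, Csf3 and Htr2b were higher in renal pelvis than in uterus, for example Htr2b at 56.2 TPM in that of T173F and 18.2 TPM in uterus.

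Of 19 uterine epithelium markers that passed the filter, 12 were at least 4 times higher in uterus and 1 in bladder, with a median of −2.36. Msx1, a homeobox factor of the receptive uterus, was at 606 TPM against 4.84 TPM. The Müllerian duct factors Pax2 and Emx2 were at 94.9 against 0.499 TPM and 89.2 against 1.57 TPM. Wnt7a, the ligand that patterns the female tract, was at 128 against 0.393 TPM. The exception was Areg, an EGF receptor ligand that progesterone is known to induce in mouse uterus, at 297 TPM in bladder and 0.298 TPM in uterus. Gland and secretory genes were present at lower levels: Foxa2 was at 18.1 TPM, Prss28 at 14.6 TPM with 0 counts in bladder, and Muc1 at 60.8 against 7.85 TPM. Lif, the cytokine needed for implantation, was at 0.605 TPM in uterus and 0.645 TPM in bladder. Foxj1, a factor of ciliated cells, was at 1.30 TPM with 0 counts in bladder.

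Stromal markers divided. Of 20, 5 were counted for uterus and none for bladder, with a median of −1.31. Those counted were Pgr, Esr1 and Gdf7, already described above, with Dio2 and Mfap5. The deiodinase Dio2 was at 167 against 0.253 TPM, and the microfibril gene Mfap5 at 455 against 64.1 TPM. Other members were high in both organs: Hand2, known from endometrial stroma, was at 326 TPM in uterus and 359 TPM in bladder, and the proteoglycan Dcn at 2711 against 2505 TPM. Of the 59 libraries, bladder ranked 2 and uterus 3 for Hand2. The summed stromal level was 7077 TPM in uterus, the highest of all libraries, and 4900 TPM in bladder, at rank 3.

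Further transcription factors marked the uterus. Osr2 was at 275 against 0.196 TPM. The neighbouring genes Dlx5 and Dlx6 were at 109 against 9.07 TPM and 114 against 1.06 TPM. Both distal-less genes, with Osr2, were higher in uterus than in any other library. Foxl2, which the ovary also uses, was at 50.3 TPM with 0 counts in bladder, and Wt1 at 143 against 5.48 TPM. On the bladder side, Foxf1, a Hedgehog-responsive factor of visceral mesenchyme, was at 433 against 17.8 TPM, its relative Foxf2 at 90.2 TPM against 0 counts (at least 208-fold), and Tbx2 at 113 against 10.5 TPM (ovary-adjusted 1.13). Of 32 urogenital factors that passed, 5 were counted for bladder and 10 for uterus. The cofactors Meis1 (166 and 185 TPM) and Tshz2 (198 and 210 TPM) were near equal.

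Among the largest differences towards uterus were Rprm, a cell cycle arrest gene, at 1085 TPM against 0 counts (at least 378-fold), and Lcn2, an iron-binding secreted protein, at 1519 against 2.65 TPM. Emb, an adhesion molecule, was at 337 against 0.967 TPM, and Rxfp1, the relaxin receptor, at 99.3 against 0.389 TPM. Uterus was the highest of all libraries for Rprm, Emb and Rxfp1, and not for Lcn2, which bone marrow held at 2374 TPM. Also in this set, all with 0 counts in bladder, were Scgb1c1 (281 TPM), Stmnd1 (395 TPM), Wfdc15b (301 TPM) and Gm16485 (195 TPM). The slow skeletal troponin Tnnt1 was at 507 TPM in uterus on 1696 counts and 0 counts in bladder, while the muscle creatine kinase Ckm was at 50.4 and 4.92 TPM. Gm8909, Gm8297 and Zfp982 ranked there on 210, 69.1 and 23.9 uterus counts. By ratio to the next library, Twist2 (106 TPM, bladder 23.3 TPM and ranked next), Lefty2 (25.5 TPM on 40 counts) and Krtap11-1 (26.0 TPM on 44 counts) also stood highest in uterus.

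The ovary libraries bear on many of these genes. In the ovary of T173F, Pgr was at 90.3 TPM, Wnt7a at 77.5 TPM, Cldn3 at 1844 TPM, Lcn2 at 2240 TPM and Aqp5 at 701 TPM. In the ovary of T3F the same genes were at 1.57, 0.291, 4.75, 2.36 and 0.699 TPM. The oviduct genes Ovgp1 and Foxj1 were at 1595 and 210 TPM in the ovary library of T173F and at 0 and 2.97 TPM in that of T3F. These uterine genes were therefore shared with 1 ovary library and not with the other. T173F, the animal with the high ovary values, also gave the bladder, and the series holds no uterus of T173F. For these genes, organ and animal therefore cannot be told apart between bladder and uterus. Tissue taken and animal cannot be told apart in the ovary values, and their part was not tested.

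**Figure D3:**
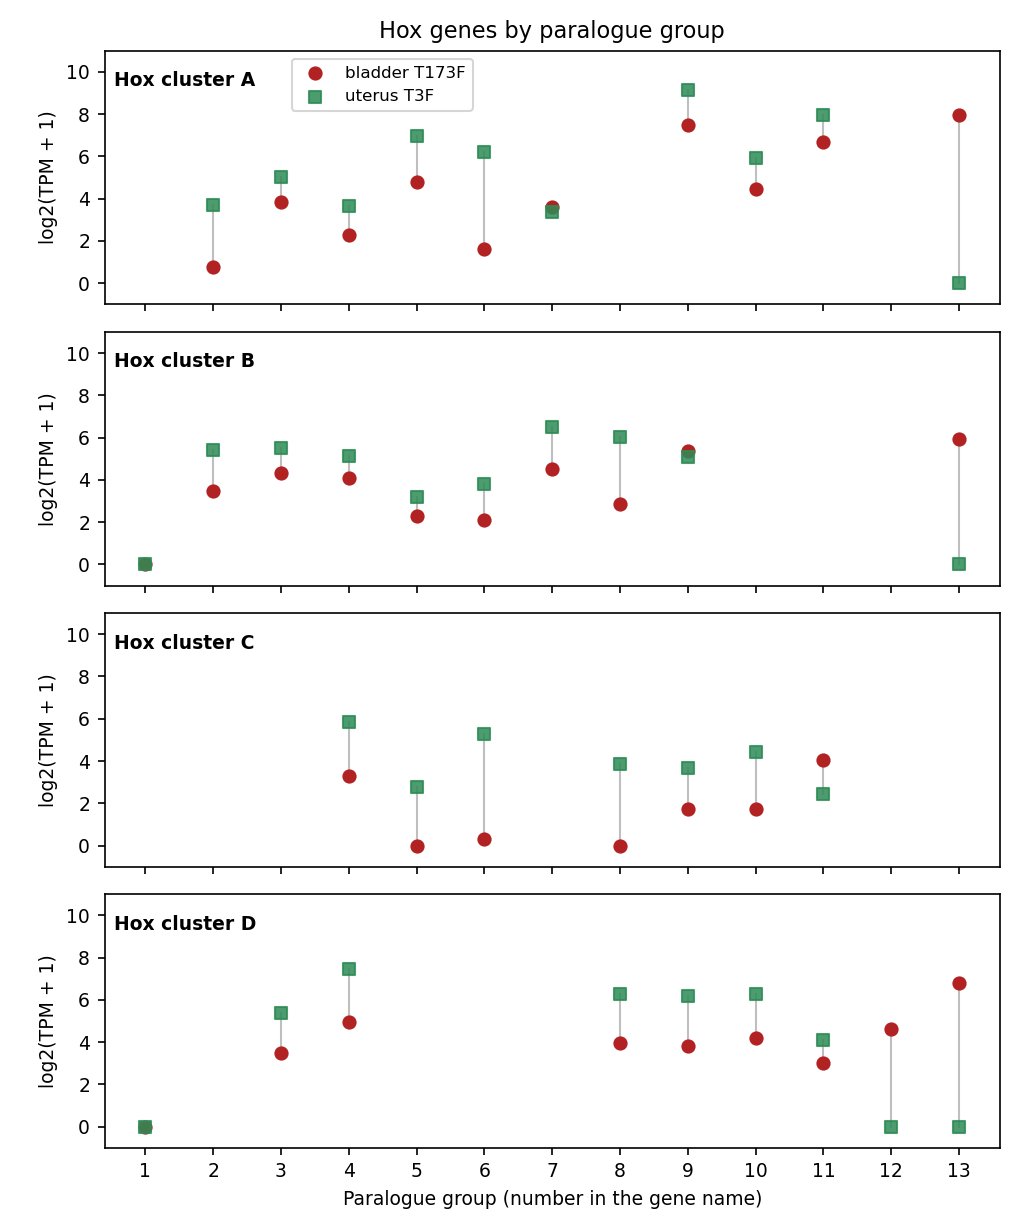
Hox genes of clusters A to D by paralogue group on the horizontal axis, with log2(TPM + 1) on the vertical axis; circles are bladder, squares uterus, and grey lines join the same gene; 1 gene is not drawn. In groups 12 and 13 the 4 genes in the tables are present in bladder and at 0 in uterus, while 27 of the 31 genes of groups 1 to 11 that passed the filter are lower in bladder.

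Hox genes divided the organs at the end of the clusters. Hoxa13 was at 249 TPM in bladder against 0 counts in uterus, at least 355-fold higher in CPM. Hoxd13 was at 109 TPM (at least 109-fold), Hoxb13 at 59.9 TPM (at least 43.4-fold) and Hoxd12 at 23.3 TPM (at least 28.6-fold), each with 0 uterus counts. These 4 are all the genes of groups 12 and 13 in the tables. Of the 33 genes of groups 1 to 11 in the tables, 31 passed the filter, 13 of them at least 4 times higher in uterus and none in bladder, with a median of −1.92. The switch fell between neighbours: Hoxa11, next to Hoxa13 in the RefSeq gene order, was at 102 TPM in bladder and 246 TPM in uterus. Hoxd11, next to Hoxd12, was at 7.11 and 16.4 TPM.

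Bladder was not the highest library for groups 12 and 13. It was at rank 3 for each of the 4 genes, and the highest library was rectum of T173F for Hoxb13 (4260 TPM), Hoxd13 (816 TPM) and Hoxd12 (240 TPM), and colon for Hoxa13 (409 TPM). Both ovary libraries had 0 TPM of Hoxa13. For Hoxa9 (176 and 560 TPM), Hoxa10 (20.9 and 59.6 TPM) and Hoxa11, uterus ranked 1 and bladder 2 of all libraries. Each difference between bladder and uterus stayed inside 4 times. The genes were not particular to the pair, since other libraries came close behind bladder. Hoxa9 reached 126 TPM in kidney medulla, Hoxa10 16.7 TPM in rectum of T173F and Hoxa11 78.3 TPM in colon, where bladder held 102 TPM. The members counted for uterus lay in all clusters: Hoxa6 was at 73.2 against 2.08 TPM, Hoxb8 at 64.5 against 6.24 TPM, Hoxc6 at 37.9 against 0.237 TPM and Hoxd4 at 174 against 29.5 TPM. Exceptions on the bladder side included Hoxc11 at 15.7 against 4.48 TPM, Hoxb9 at 39.5 against 33.0 TPM and Hoxa7 at 11.2 against 9.36 TPM.

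Most smooth muscle genes were high in both organs and higher in bladder, but some members were low in both. Of 32 contractile genes, all of which passed the filter, 11 were at least 4 times higher in bladder and 1 in uterus; 29 were higher in bladder by any amount and the median was 1.73. Myh11, the smooth muscle myosin heavy chain, was at 4691 TPM in bladder and 580 TPM in uterus, a CPM ratio of 8.07 (interval 8.0 to 8.15). Des, the intermediate filament desmin, was at 10331 and 1533 TPM and Cnn1, calponin, at 4915 and 905 TPM. Acta2, smooth muscle actin, was at 15113 and 4705 TPM, inside 4 times. The widest gap was in Synm, an intermediate filament protein that links desmin to the membrane, at 721 and 16.0 TPM. Bladder was also higher in Myocd, the coactivator of this gene set, at 12.9 against 3.36 TPM. Myl6, a light chain not restricted to muscle, was the member counted for uterus, at 165 against 26.2 TPM.

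The summed level of these genes was 58774 TPM in bladder, the highest of all libraries, and 15352 TPM in uterus, at rank 7; the next after bladder was rectum of T173F at 30026 TPM. Bladder held the highest level for 21 of the 32 genes. The ovary libraries differed in the same genes, with sums of 12350 TPM in T173F and 3128 TPM in T3F. In that pair Des was at 1690 and 78.9 TPM and Cnn1 at 836 and 54.9 TPM, wider gaps than between bladder and uterus. Ovary-adjusted, Des and Cnn1 reversed to −1.65 and −1.47, Myh11 was left at 0.26, Actg2 at −0.024 and Myl6 at −1.10, and Synm stayed past 4 times at 4.41. Acta2 and Actc1, inside 4 times before, also turned, to −0.76 and −0.87. Acta2, Actc1, Actg2 and Acta1 encode near-identical actins, so the share of reads among them is uncertain. Actc1, the cardiac form, was at 6209 TPM in bladder and 2011 TPM in uterus, above the 4580 TPM of the right ventricle.

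**Figure D4:**
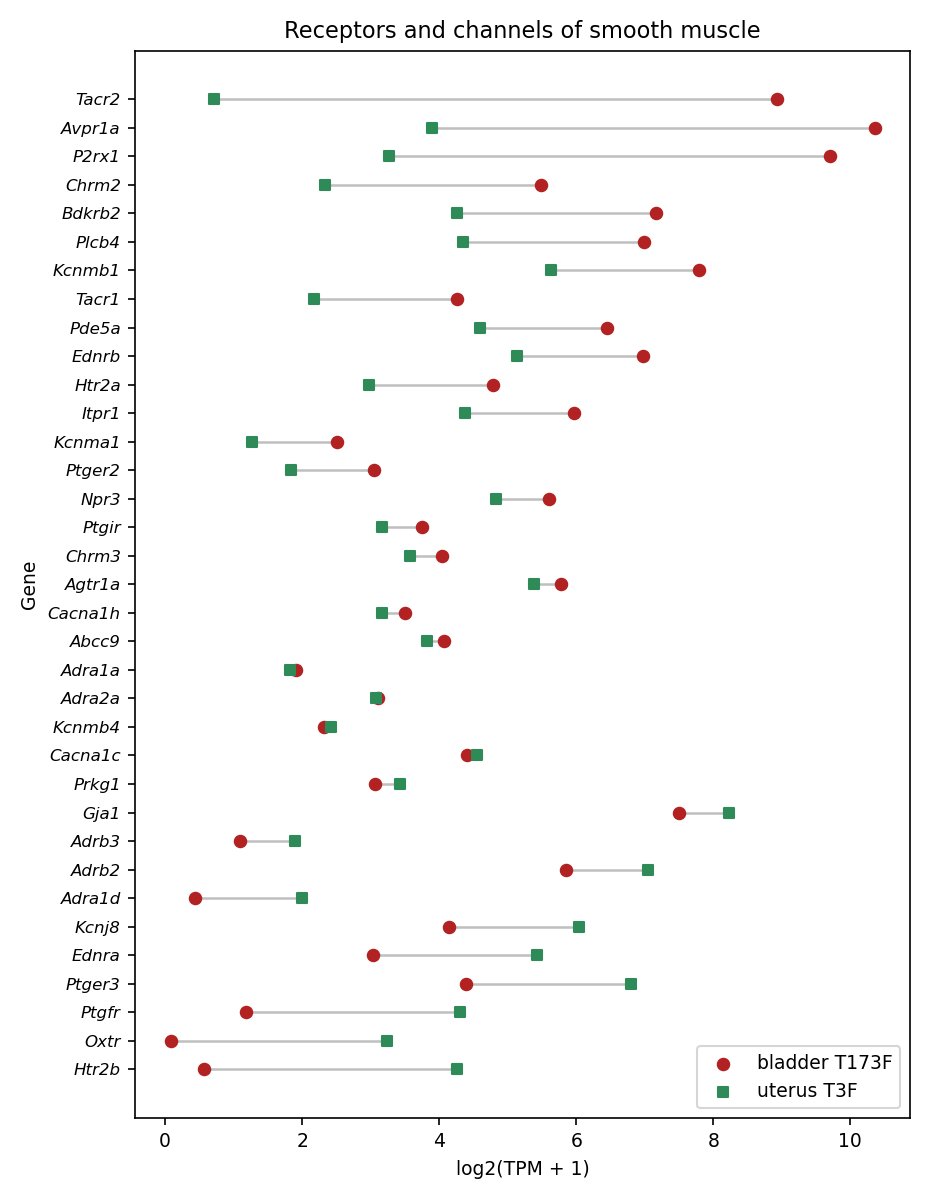
Receptors and channels of smooth muscle that passed the filter, ordered by their difference, with log2(TPM + 1) on the horizontal axis; circles are bladder and squares uterus. Tacr2, Avpr1a and P2rx1 show the widest gaps towards bladder, and Htr2b, Oxtr and Ptgfr towards uterus; most of the 35 genes lie between.

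Receptors and channels differed in kind. Of 35 that passed, 8 were at least 4 times higher in bladder and 5 in uterus, with a median of 0.39. P2rx1, the ATP-gated channel through which nerves contract the detrusor, was at 837 against 8.66 TPM, a CPM ratio of 96.4 (interval 84.9 to 110); the next library, bone marrow, held 52.5 TPM. Tacr2, the neurokinin A receptor, was at 489 against 0.643 TPM, on 238 counts against 1. Avpr1a, the vasopressin receptor of smooth muscle, was at 1308 against 13.9 TPM. Of the muscarinic receptors, Chrm2 was at 43.8 against 4.04 TPM and Chrm3 at 15.5 against 11 TPM. The bradykinin receptor Bdkrb2 was at 142 against 18.2 TPM and the potassium channel subunit Kcnmb1 at 221 against 48.5 TPM (ovary-adjusted 0.21). Adrb3, through which detrusor relaxes in other species, was low in both, at 1.14 and 2.72 TPM.

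The receptors counted for uterus bind agents known to act on the myometrium. Oxtr, the oxytocin receptor, was at 8.42 TPM against 0.0576 TPM, on 465 counts against 1. Ptgfr, the prostaglandin F receptor, was at 18.8 against 1.28 TPM (ovary-adjusted 1.74, the other direction), and Ptger3, an E receptor, at 110 against 19.95 TPM. The serotonin receptor Htr2b was at 18.2 against 0.486 TPM and the endothelin receptor Ednra at 42.2 against 7.22 TPM (ovary-adjusted −1.86). None of these 5 was highest in uterus: the ovary of T3F, for example, held 421 TPM of Ptgfr and 12.8 TPM of Oxtr. Gja1, the connexin that couples myometrial cells, was at 180 and 298 TPM, and the calcium channel Cacna1c at 20.2 and 22.6 TPM.

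Prostaglandin genes were mixed. Ptgs1, a cyclooxygenase, was at 86.8 TPM in bladder and 11.2 TPM in uterus and the degrading enzyme Hpgd at 40.4 and 7.14 TPM. Akr1b3, an aldose reductase that can also act as a prostaglandin F synthase, was at 1462 and 72.9 TPM. Ptgs2 was low in both, at 4.55 and 2.31 TPM. Of 21 members, 4 were counted for bladder and 2, the receptors Ptgfr and Ptger3, for uterus.

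Signalling ligands of the 2 walls differed. Bmp5 was at 1566 TPM in bladder and 5.26 TPM in uterus, Bmp4 at 158 and 15.1 TPM and Bmp3 at 121 and 11.4 TPM (ovary-adjusted 1.61). Uterus was higher in Gdf7, Inhbb (60.5 against 8.78 TPM, ovary-adjusted −0.33), Tgfb2 (29.7 against 6.33 TPM) and Gdf11 (26.1 against 5.25 TPM). Of 24 BMP and TGF-beta ligands that passed, 5 were counted for each organ, and of 31 receptors and inhibitors, 3 for bladder and 2 for uterus. The BMP target Id4 was at 898 against 190 TPM (ovary-adjusted −0.30). Sostdc1, another antagonist, was at 47.1 TPM in uterus and 5.82 TPM in bladder.

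Wnt ligands also split by member. Bladder was higher in Wnt10a (35.6 against 0.297 TPM), Wnt2 (60.0 against 9.96 TPM) and the inhibitor Sfrp1 (150 against 19.6 TPM, ovary-adjusted 0.55). Uterus was higher in Wnt7a, Wnt11 (30.3 against 3.05 TPM), Wnt16 (28.1 against 1.88 TPM) and the inhibitor Wif1 (27.6 TPM against 0 counts). Of 27 that passed, 4 were counted for bladder and 5 for uterus. In the Hedgehog pathway the ligand differed by organ, Shh in bladder and Ihh in uterus (13.4 against 2.08 TPM). The receptor Ptch1 was at 90.4 and 80.3 TPM, whereas the target Hhip was at 57.7 and 0.855 TPM and the target Gli1 at 22.3 TPM in bladder and 79.2 TPM in uterus.

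Connective tissue genes differed by member. Of 23 collagens, 4 were counted for bladder and 2 for uterus, with a median of 1.24. The fibrillar collagens Col1a1 (3853 and 678 TPM) and Col1a2 (2057 and 496 TPM) were higher in bladder, as were Col12a1 (624 and 91.7 TPM) and Col8a1 (165 and 1.27 TPM). Ovary-adjusted, Col1a1, Col1a2 and Col12a1 were left at 1.83, 1.43 and 1.44. Col3a1, at 3935 and 1606 TPM, stayed inside 4 times. Col6a6, at 66.9 against 0.882 TPM, and Col7a1, at 24.1 against 1.11 TPM, were higher in uterus. Of 30 matrix glycoproteins and proteoglycans, 7 were counted for bladder and 4 for uterus. Thbs2 was at 649 against 26.9 TPM, Fn1, fibronectin, at 463 against 61.1 TPM, and Fmod at 2356 against 325 TPM. The elastic fibre genes Mfap4 (1298 against 23.9 TPM) and Fbn2 (9.29 against 0.0755 TPM) were higher in uterus. The fibroblast markers Pdgfra (73.1 and 81.8 TPM) and Pdgfrb (51.3 and 43.5 TPM) were close, and of 15 such markers 1 was counted for each organ.

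Enzymes that handle foreign compounds were at least 4 times higher in bladder for 8 of 26 genes and in uterus for 2, with a median of 1.15. The glutathione transferases Gstm1 (7233 and 287 TPM), Gstm2 (1716 and 63.0 TPM) and Gsta2 (331 and 4.03 TPM) led, and the quinone reductase Nqo1 was at 588 and 29.1 TPM. Glutathione transferases have similar copies, and the split among Gstm1 and Gstm2 is uncertain. Cyp2f2 (43.3 against 1.76 TPM) and Ephx1 (118 against 28.2 TPM) were higher in uterus. Of 20 retinoid genes, 3 were counted for uterus and none for bladder, with a median of −0.67. Over all genes the shares were 7.53% and 4.94% and the median −0.29. Stra6, the receptor that takes up retinol, was at 664 against 99.9 TPM, the binding protein Crabp1 at 181 against 6.09 TPM, and the retinoic acid hydroxylase Cyp26a1 at 18.1 against 0.215 TPM.

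Immune genes differed by cell type. Of 15 natural killer and T cell markers that passed, 5 were counted for uterus and none for bladder: Prf1, perforin, was at 22.1 TPM and Nkg7 at 20.6 TPM, both with 0 counts in bladder, and Gzma at 48.3 against 2.26 TPM (ovary-adjusted −1.81). The granzyme gene Gzmc was at 348 TPM with 0 counts in bladder, the highest of all libraries. The plasma cell genes Jchain and Mzb1 were at 138 against 5.79 TPM and 44.8 against 3.07 TPM. Of 15 macrophage markers, 10 were lower in bladder by any amount, with a median of −0.62. Cd163 (57.8 and 4.13 TPM), Csf1r (105 and 9.65 TPM) and Mrc1 (62.1 and 12.9 TPM) were counted for bladder and Fcer1g (23.5 and 117 TPM, ovary-adjusted −1.73) for uterus. The complement genes C1qa (111 and 234 TPM) and C1qb (379 and 582 TPM) stayed inside 4 times.

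Interferon response genes were at least 4 times higher in uterus for 10 of 17 and in bladder for 1, Ifit3 (92.9 and 8.23 TPM), with a median of −2.09. Bst2 was at 968 against 191 TPM (ovary-adjusted −1.03) and Oas1a at 106 against 7.34 TPM. The summed level was 1737 TPM in uterus and 480 TPM in bladder. In the other libraries it ran from 78.3 to 3432 TPM in T3F (median 229) and from 73.9 to 2071 TPM in T173F (median 604). By this sum, uterus was above the median of its animal and bladder below that of its own. The mean log2(TPM + 1) of the list placed bladder otherwise, at 3.55, above the T173F median of 3.46. By that mean, uterus was at 5.20, above the T3F median of 2.77.

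Several groups did not set the organs apart by the 4-times count. Of 17 endothelium markers, 25 cell cycle genes and 15 reference genes, none was counted in either direction; the medians were −0.79, −0.33 and −0.34. Ribosomal protein genes were lower in bladder for 33 of 35, by a median of −0.87, with 1, Rpl35, past 4 times. Their summed level was 37610 TPM in uterus, the highest of all libraries, and 23226 TPM in bladder, at rank 7. Immediate early genes, which handling of tissue can induce, had 2 of 19 counted for bladder, Fos (33.8 and 2.15 TPM) and Egr1 (469 and 71.9 TPM), with a median of 0.69.

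**Figure D5:**
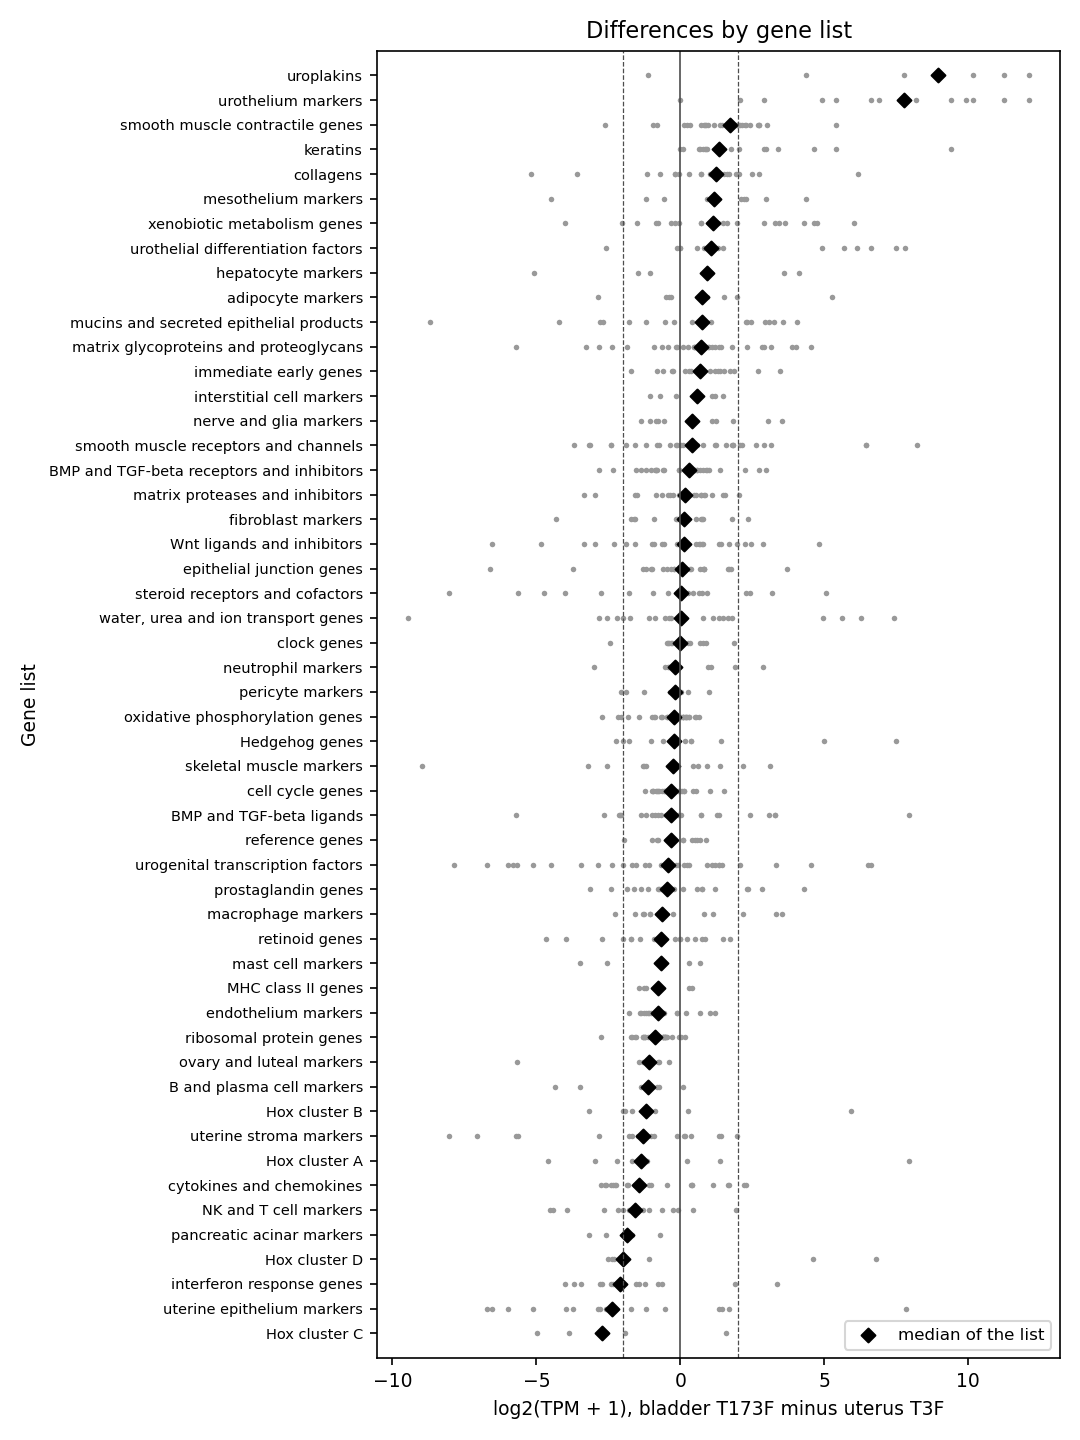
Gene lists with at least 5 members that passed the filter, ordered by their median (diamonds); grey points are members, the horizontal axis is log2(TPM + 1) in bladder minus uterus, and dashed lines mark 4 times. Uroplakins (median 8.97) and urothelium markers (7.77) stand at the top and Hox cluster C (−2.70) and uterine epithelium markers (−2.36) at the bottom, with most medians between −2 and 2. The lists at the top share Upk1a, Upk1b, Upk2 and Upk3a.

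Markers of tissue that a biopsy could carry along were read beside these results. Of 11 mesothelium markers, 5 were counted for bladder, among them Upk3b, Lrrn4 (149 and 17.8 TPM, ovary-adjusted 1.59) and Msln (9.02 and 1.14 TPM, ovary-adjusted 0.10), and 1 for uterus, Wt1; the summed levels were 1523 and 737 TPM. Of 9 adipocyte markers that passed, 5 were higher in bladder by any amount, with 1 counted for each organ, a median of 0.76 and sums of 3797 and 378 TPM. Fabp4, a fatty acid binding protein of fat, endothelium and urothelium, made up most of the bladder sum, at 3077 and 78.1 TPM, and Plin4 was at 555 and 193 TPM. Adipoq, the member counted for uterus, was at 2.70 and 26.1 TPM, and Plin1 at 0.688 and 1.10 TPM. Ovary and luteal markers summed to 46.8 TPM in bladder and 154 TPM in uterus, with 0 counts of Fshr and Cyp19a1 in both. Kidney tubule markers summed to 6.56 and 32.6 TPM and pancreatic acinar markers to 3.73 and 30.3 TPM. Hepatocyte markers summed to 69.7 and 428 TPM, of which Serpina1a made 421 TPM in uterus, with Alb at 3.12 and 0.978 TPM. Their part in the differences was not tested.

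The most abundant genes overlapped in part. Apart from genes described above, the 10 highest in bladder included Apoe (8016 TPM, uterus 5333 TPM), Pcp4 (6739 and 2799 TPM) and Ptms (5492 and 4192 TPM). The 10 highest in uterus included mt-Nd1 (21567 TPM, bladder 4634 TPM, ovary-adjusted −1.05), mt-Nd5 (1134 and 16075 TPM, ovary-adjusted −0.50), Tmsb4x (1850 and 5284 TPM) and the translation factors Eef2 (3921 and 4336 TPM) and Eef1a1 (2030 and 3547 TPM). Acta2, Apoe and Ptms were in both sets. Among genes at 20 TPM or more, bladder held the highest level of all libraries for 299 of 7436 (4.02%) and uterus for 5.18% of 8219. In bladder these included Adgrd1, an adhesion receptor, at 1064 TPM against 114 TPM in the next library (ovary-adjusted 1.06 for bladder against uterus), and Gpx6, at 228 TPM against 8.85 TPM on 86 counts.

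The ovary libraries of the same 2 animals differed under 1 organ label, by animal, by any difference in the tissue taken, or both, which cannot be told apart. Of 15934 genes that passed there, 1544 (9.69%) were at least 4 times higher in the ovary of T173F and 504 (3.16%) in that of T3F. Of the 760 genes counted for bladder, 144 (18.9%) were also counted for the ovary of T173F and 29 (3.82%) for that of T3F. Of the 1160 counted for uterus, 88 (7.59%) were also counted for the ovary of the same animal, T3F, and 295 (25.4%) for the ovary of T173F. Beside the 9.69% and 3.16% of all genes counted in the ovary pair, each of the 4 shares was higher, that of bladder genes and the ovary of T3F by little. These are descriptions, and the genes were counted on other libraries. Another scaling of the 2 libraries, TMM, moved the median of all genes by 0.22 towards bladder, which is the shift to set beside any small median above.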

How the data were processed

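The authors deposited 2 tables for 59 libraries. One holds expected counts per gene, and the other TPM, which summed to 1000000 in each library. RSEM and Bowtie 0.12.8 are listed in the submitters' processing notes; build and annotation: not given in the sources used here. Genes are listed by mouse-form symbol (18970), and 14498 of them matched the RefSeq gene table of assembly mArvNil1.pat.X, used only for names and gene order. RSEM shares reads among similar transcripts, so genes with near-identical copies, such as actins, ribosomal proteins, Gapdh and Myl6, are uncertain, and a short gene can reach a high TPM on few counts.

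From the deposited TPM, log2(TPM + 1) differences were computed without a test, for genes at 1 TPM or more in either library; a gene was counted at 4 times or more. From the deposited expected counts, CPM ratios with exact 95% (Clopper-Pearson) intervals on rounded counts were computed, with a floor of 3 counts per library. The counting step was tested on simulated data. TMM factors came from edgeR 4.0.16 and were used only as an alternative scaling.

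The members, the 55 gene lists and the rules were chosen with earlier results of these data known. Named genes are the 15 largest differences per direction at 20 TPM or more, the 10 most abundant of each library, list members, up to 10 genes highest of all libraries in each organ, and the 5 most like Upk1a and Gdf7. Ovgp1 in the ovary libraries and the genes at the threshold were added after their values were seen. The labels give 1 library a side, from different animals. Some genes that the rule names are left out of the text.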

Additional observations from a re-analysis of the deposited data

How the results depend on the processing

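With 5 TPM added, 414 genes were at least 4 times higher in bladder and 483 in uterus, and in the ovary pair 821 in T173F and 263 in T3F. With 0.1 TPM added, the counts were 1070 and 1849, and 788 for the ovary of T3F. On CPM, 604 and 815 genes were counted, and 275 for the ovary of T3F. With the ovary difference of the same animals subtracted, which mixes in any difference between those ovary samples, 895 were counted for bladder and 2206 for uterus. The direction then reversed for 101 of the 1920 genes counted. Of the 175 named genes past 4 times, 29 then fell short, of which 8 reversed: Fam167a (−3.48), Cldn23 (−2.59), Des (−1.65), Cnn1 (−1.47), Id4 (−0.30), Actg2 (−0.024), Slc14a1 (−0.023) and Ptgfr (1.74); a further 15 named genes inside 4 times changed sign. TMM scaling gave 884 and 1015, centring on the median ratio 878 and 1027; they moved the median by 0.22 and 0.20. A filter at 5 TPM gave 718 and 1014, and no filter 760 and 1160. The counts without a filter could not change, since a gene differing this far always reaches 1 TPM. Chosen after seeing the data, a minimum of 10 counts in the higher library gave 667 and 1010, and rescaling without mitochondrial genes 742 and 1211. Apart from the ovary subtraction, 0 counted genes reversed under any setting. Another added TPM or filter cannot turn a direction, and rescaling moved all genes by little. Only the CPM setting could have reversed a counted gene there. Of the genes counted, 100 for bladder and 159 for uterus rest on 10 or fewer counts. No replicate could be left out. No paired analysis was possible because each organ has 1 library, from different animals.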
